A study of Mus musculus with 6 samples.

Results

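Coenzyme Q synthesis is represented here by 10 genes, Coq2, Coq3, Coq4, Coq5, Coq6, Coq7, Coq8a, Coq8b, Coq9 and Pdss1, found by symbol among the 54532 genes of the deposited table. All 10 were present once and all passed the filter on low values. They were compared between 3 hearts of Wtapflox/flox mice (Wtap-flox) and 3 hearts with the label Wtap-CKO, a conditional knockout of that gene, all taken at an age of 4 days. The controls carry floxed Wtap alleles, as their name gives it. The sources used here do not name the Cre driver or the exons deleted, or say whether controls carried Cre. Poly(A)+ RNA of whole hearts was sequenced, and the hearts of a group are described by the submitters as independent biological replicates. The group of genes was chosen by the FPKM difference of Coq8a, which is among the largest falls of this contrast. Its difference, and every count that includes it, is therefore a description without a test. The other members were taken for their function, but with earlier results of these data known. Their adjusted p values are those of a fit across all 12568 tested genes.

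Coenzyme Q, or ubiquinone, is the lipid that carries electrons from complex I, complex II and other dehydrogenases to complex III of the mitochondrial respiratory chain. It consists of a ring made from hydroxybenzoate and a long isoprenoid tail. The tail is built by the enzyme of Pdss1 and Pdss2 and joined to the ring by Coq2, and the ring is then modified by Coq3, Coq5, Coq6 and Coq7 in a complex on the inner membrane that also needs Coq4, Coq8a, Coq8b and Coq9. Heart muscle is rich in mitochondria, and inherited defects of many of these genes cause primary coenzyme Q deficiency.

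WTAP is a regulatory subunit of the complex that writes N6-methyladenosine on messenger RNA. The level of Wtap itself was 7.77, 8.74 and 10.9 FPKM (reads scaled by gene length and a size per library) in Wtap-flox and 9.32, 7.75 and 9.46 FPKM in Wtap-CKO, with a log2 fold change of -0.04 (adjusted p = 0.893, limma). The groups overlapped. Reads from all exons enter this value, so it does not check the labels, and every direction below rests on the labels Wtap-CKO and Wtap-flox. The libraries held 15649028 to 18045599 reads assigned to genes. In a principal component analysis the groups separated on the first axis (52.6% of the variance), and Wtap-CKO 3 lay away from Wtap-CKO 1 and 2 on the second (20.4%). Summed cardiomyocyte markers stood at 18135 to 21800 FPKM in Wtap-flox and 18916 to 22708 FPKM in Wtap-CKO, and all 10 were present. Across the file 16.6% of tested genes passed an adjusted p of 0.05, 6.69% lower and 9.91% higher in Wtap-CKO.

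Coq8a lay far lower in Wtap-CKO, Coq9 fell, and none of the other 8 members passed by limma on log2 FPKM or by limma-voom on recovered reads (0 of 8 also at an unadjusted p under 0.05). Over the 12568 tested genes, 1780 lay lower and 2197 higher at an unadjusted p under 0.05, and limma-voom called 1063 lower and 1474 higher. Coq8a (ENSMUSG00000026489, chromosome 1, 180165238 to 180199602, minus strand, coordinates as GRCm38) encodes an atypical kinase-like ATPase of the UbiB family that supports the synthesis complex. Coq9 (ENSMUSG00000031782, chromosome 8, 94838321 to 94854895, plus strand) encodes a lipid-binding protein that presents the coenzyme Q precursor to the hydroxylase COQ7. With Coq8a counted, 2 of the 10 members were called lower and 0 higher. Called genes made up 16.6% of all tested genes. Groups without overlap were seen in 3 members (Coq8a, Coq9 and Coq3) and in 37.1% of all tested genes. Neither count is read as a result, since Coq8a chose the group.

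**Figure D1:**
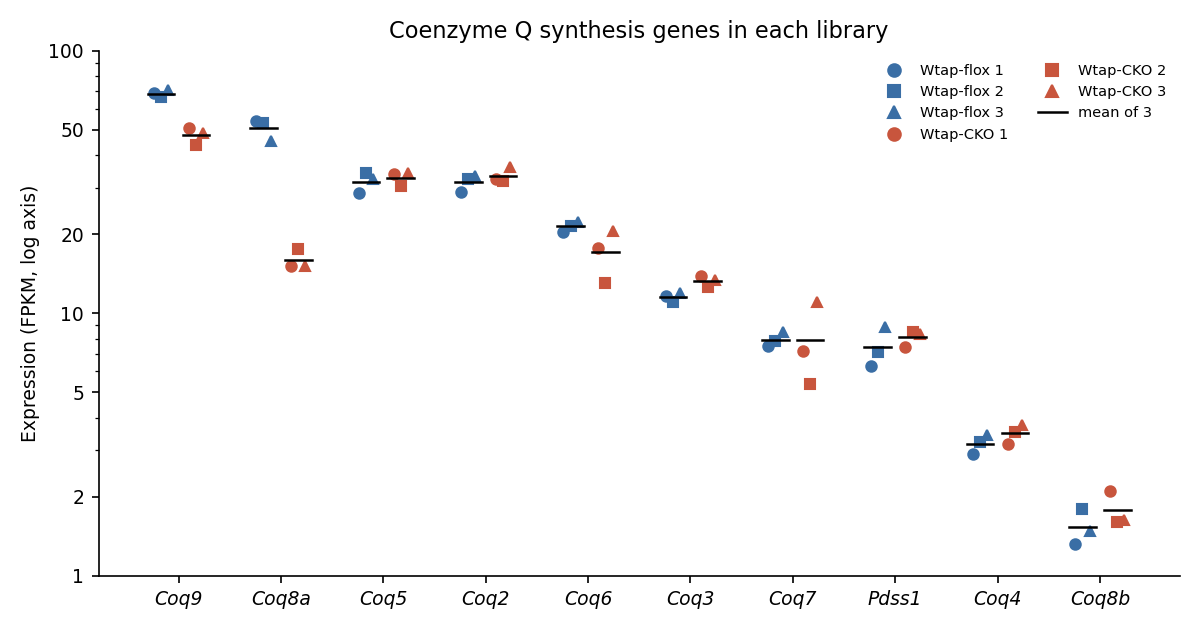
Level of each of the 10 members (FPKM, log axis) in the 6 libraries, with the mean of 3 as a bar and members ordered by their Wtap-flox mean. Coq8a in Wtap-CKO lies between 15.1 and 17.5 FPKM, below all of its Wtap-flox values, Coq9 also lies apart, and Coq7 is the most scattered among the Wtap-CKO libraries.

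The start regions of Coq8a and Coq9 are shown because these are the members whose values were lower and did not overlap between groups. Each window runs from 250 bases before to 50 bases after a RefSeq start site (GRCm38.p6), 5′ to 3′ on the gene's strand. Capitals mark 4 motifs on either strand: the CCAAT box, the GC box GGGCGG, the NRF1 half-site TGCGCA and the nuclear receptor half-site AGGTCA. The first Coq8a window is chr1:180195971-180196270, the second, further into the gene, is chr1:180193436-180193735 (both minus strand), and that of Coq9 is chr8:94838163-94838462 (plus strand).
Coq8a, outer start: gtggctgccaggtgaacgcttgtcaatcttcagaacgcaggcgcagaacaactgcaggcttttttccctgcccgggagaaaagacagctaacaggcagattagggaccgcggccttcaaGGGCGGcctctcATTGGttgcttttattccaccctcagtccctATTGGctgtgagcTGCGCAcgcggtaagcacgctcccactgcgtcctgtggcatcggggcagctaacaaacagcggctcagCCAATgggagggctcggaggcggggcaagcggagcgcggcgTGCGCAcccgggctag
Coq8a, inner start: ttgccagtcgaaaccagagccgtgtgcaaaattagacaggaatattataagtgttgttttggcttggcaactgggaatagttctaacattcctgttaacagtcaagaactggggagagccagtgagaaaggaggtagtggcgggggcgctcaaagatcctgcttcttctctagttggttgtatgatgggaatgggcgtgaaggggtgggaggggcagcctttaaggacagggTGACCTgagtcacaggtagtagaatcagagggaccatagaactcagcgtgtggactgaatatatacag
Coq9: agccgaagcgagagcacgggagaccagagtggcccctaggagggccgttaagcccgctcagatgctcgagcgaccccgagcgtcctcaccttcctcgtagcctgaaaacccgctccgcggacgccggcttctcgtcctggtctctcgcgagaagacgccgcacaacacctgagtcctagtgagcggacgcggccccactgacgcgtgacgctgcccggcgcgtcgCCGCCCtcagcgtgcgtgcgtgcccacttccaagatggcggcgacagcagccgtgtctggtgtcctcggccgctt

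The 2 Coq8a windows are unlike each other in composition. The outer one is 61.7% G and C with 22 CpG dinucleotides and holds 3 CCAAT boxes, 2 NRF1 half-sites and 1 GC box. The inner one is 48.7% G and C with 6 CpG dinucleotides and holds none of those but 1 nuclear receptor half-site, whose first base lies 18 bases before the start. The Coq9 window is 68.3% G and C with 39 CpG dinucleotides and holds 1 GC box. Among 32851 promoter windows of the same length, a CCAAT box stood in 37.4%, a GC box in 35.7%, the nuclear receptor half-site in 16.3% and the NRF1 half-site in 7.76%. The longer ERR half-site AAGGTCA, which contains AGGTCA, stood in 4.72% of all windows and in 1 member window, that of Pdss1. The MEF2 motif (3.19% of all windows) and AGATAA (11.2%) had no match in the 10 windows of the 8 members with an entry. The core CCGGAA of ETS factors was found in 4 member windows, of Coq3 (both), Coq6 and Pdss1 (14.9% of all windows), and CANNTG in 7 (72.3%). The 2 Coq3 windows overlap, and their CCGGAA match is the same site. The FPKM values count the whole gene and do not tell which start was used. In the file the Coq8a gene reaches beyond the outer RefSeq start, and that stretch is not analysed here.

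Coq8a stood at 54.1, 53.1 and 45.2 FPKM in Wtap-flox 1 to 3 and at 15.1, 17.5 and 15.1 FPKM in Wtap-CKO 1 to 3. Each Wtap-CKO value was well under each Wtap-flox value, and the 3 Wtap-CKO libraries lay close together. The means were 50.8 ± 4.86 and 15.9 ± 1.39 FPKM (SD, n = 3), a change of the mean of -68.7%. On the log2(FPKM + 1) scale, which understates changes of low genes, the difference was -1.61 with an SE of 0.13. It ranged from -1.79 to -1.57 over 20 alternatives, leaving out each library included. Among the tested genes it was number 28 when ordered from the largest fall. The values rest on 4243 to 4990 reads in Wtap-flox and 1289 to 1432 reads in Wtap-CKO. Coq8a overlaps 366 bases of Cdc42bpa on the opposite strand, and how such reads were counted is not stated. Cdc42bpa stood at 3.71 ± 0.349 and 3.60 ± 0.708 FPKM (SD, n = 3), with a log2 fold change of -0.04 (adjusted p = 0.864, limma). In bulk hearts, fewer cells of a type and less RNA per cell cannot be told apart.

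Coq8b (ENSMUSG00000003762, chromosome 7, 27233023 to 27257950), the paralogue of Coq8a, was the lowest member in both groups. Its values were 1.31, 1.80 and 1.48 FPKM in Wtap-flox and 2.10, 1.60 and 1.62 FPKM in Wtap-CKO, with overlap between groups. The log2 fold change was 0.13 (95% interval -0.18 to 0.44, adjusted p = 0.555, limma), from 128 to 189 reads a library. Coq8b overlaps 8670 bases of Gm15567 on the opposite strand (0.106 to 0.350 FPKM) and 5775 of Gm44641 on its own (0 FPKM). The ratio of Coq8a to Coq8b does not depend on how libraries were scaled. It was 41.1, 29.5 and 30.7 in Wtap-flox and 7.20, 10.95 and 9.31 in Wtap-CKO, without overlap. On the log2 scale the mean ratio differed by -1.89 between groups, and by -2.03 to -1.73 when any 1 library was left out. Since it contains Coq8a, this ratio is a description as well.

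**Figure D2:**
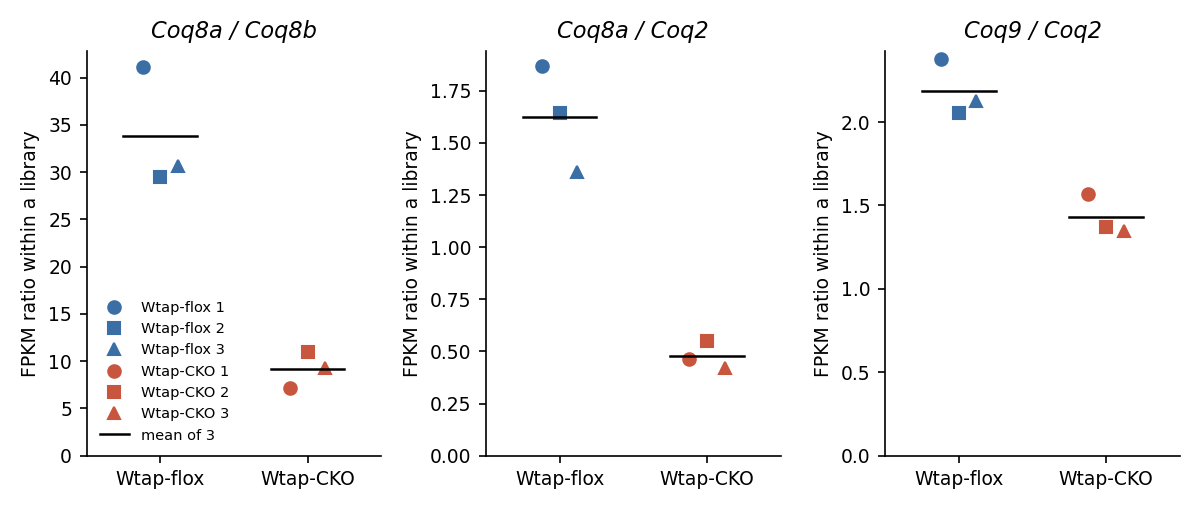
FPKM ratios within each library, Coq8a over Coq8b, Coq8a over Coq2 and Coq9 over Coq2, with 3 libraries a group and the mean as a bar. All axes start at 0. The Wtap-CKO libraries lie below the Wtap-flox libraries in all 3 ratios, with Coq8a over Coq2 at 0.421 to 0.548 against 1.36 to 1.87.

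Coq9 was the member with the highest level in both groups. It stood at 68.7, 66.5 and 70.7 FPKM in Wtap-flox and at 50.9, 43.8 and 48.5 FPKM in Wtap-CKO, and the groups did not overlap. The means were 68.7 ± 2.11 and 47.7 ± 3.63 FPKM (SD, n = 3), a change of -30.5%. The log2 fold change was -0.52 (95% interval -0.81 to -0.23, adjusted p = 0.0254, limma). Non-overlap with lower values in Wtap-CKO was seen in 17.3% of all tested genes. The call was lost when any library but Wtap-CKO 3 was left out, in fits with fewer samples (adjusted p 0.0645 to 0.0833), while the log2 fold change stayed between -0.57 and -0.46. With all 6 libraries it was also lost without a filter on low values (adjusted p = 0.0544). The ratio of Coq9 to Coq2, the gene of the enzyme that joins tail and ring, was 2.38, 2.06 and 2.12 in Wtap-flox and 1.57, 1.37 and 1.35 in Wtap-CKO. It too is free of library scaling and did not overlap, but it rests on Coq2 as the denominator. The ratio of Coq9 to Coq6, whose mean was also lower in Wtap-CKO, overlapped between groups. The start of Coq9 shares 38 bases with Ciapin1 on the opposite strand, which had 8.50 ± 0.838 and 7.05 ± 0.764 FPKM (SD, n = 3) and a log2 fold change of -0.24 (adjusted p = 0.232, limma).

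The genes that make and attach the tail had no difference that passed. Pdss1, for the catalytic subunit of the polyprenyl diphosphate synthase, stood at 6.28, 7.14 and 8.84 FPKM in Wtap-flox and 7.46, 8.46 and 8.36 FPKM in Wtap-CKO (log2 fold change 0.12, 95% interval -0.19 to 0.43, adjusted p = 0.591, limma). Its partner subunit Pdss2, which is not among the 10, stood at 3.47, 3.51 and 3.97 FPKM against 3.18, 2.56 and 2.91 FPKM. All Wtap-CKO values of Pdss2 lay below those of Wtap-flox, but the log2 fold change of -0.26 did not pass (95% interval -0.53 to 0.01, adjusted p = 0.166). Coq2 stood at 28.9, 32.3 and 33.3 FPKM in Wtap-flox and 32.4, 32.0 and 36.0 FPKM in Wtap-CKO (log2 fold change 0.08, 95% interval -0.19 to 0.36, adjusted p = 0.682, limma). The sign of both Pdss1 and Coq2 turned when each library was set to a fixed total, and that of Coq2 also with quantile normalization.

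**Figure D3:**
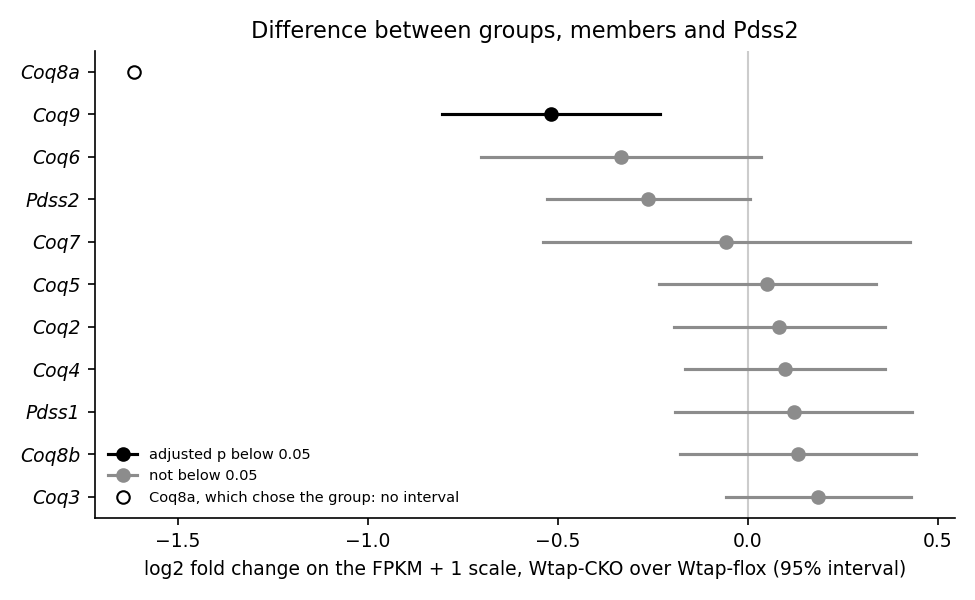
Log2 fold change of each member and of Pdss2 on the FPKM + 1 scale (Wtap-CKO over Wtap-flox) with 95% intervals from limma. Coq8a, at -1.61, is an open point without an interval because it chose the group. The interval of Coq9 lies below 0, and those of the other genes shown include 0.

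Among 4 ring-modifying enzymes, Coq6 and Coq7 scattered more among the Wtap-CKO libraries than among those of Wtap-flox, and Coq3 and Coq5 varied by similar amounts in both. The methyltransferase gene Coq5 stood at 28.6, 34.2 and 32.3 FPKM in Wtap-flox and 34.0, 30.6 and 34.1 FPKM in Wtap-CKO (log2 fold change 0.05, adjusted p = 0.811, limma), with a sign that turned under 3 scalings and without Wtap-flox 1. Coq3, the other methyltransferase gene, stood at 11.7, 11.1 and 11.9 FPKM in Wtap-flox and 13.8, 12.6 and 13.4 FPKM in Wtap-CKO. Its Wtap-CKO values were all above those of Wtap-flox, as in 19.8% of tested genes, but its log2 fold change of 0.19 (95% interval -0.06 to 0.43, adjusted p = 0.274) did not pass.

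Coq6, for a ring hydroxylase, stood at 20.3, 21.6 and 22.3 FPKM in Wtap-flox and at 17.7, 13.02 and 20.5 FPKM in Wtap-CKO. Wtap-CKO 3 fell inside the Wtap-flox range and Wtap-CKO 2 lay lowest. The log2 fold change was -0.33 (95% interval -0.70 to 0.04, adjusted p = 0.200, limma), and it passed with TPM scaling and when totals were set without the mitochondrial genome (adjusted p = 0.0447 and 0.0408). Coq7, for the hydroxylase that works with COQ9, stood at 7.49, 7.82 and 8.48 FPKM in Wtap-flox. Its Wtap-CKO values were 7.21, 5.38 and 11.1 FPKM, so that the lowest and the highest of the 6 values both came from Wtap-CKO. Its log2 fold change was -0.06 (95% interval -0.54 to 0.43, adjusted p = 0.881), 0.16 without Wtap-CKO 2 and -0.30 without Wtap-CKO 3. Coq6 and Coq7 had their highest Wtap-CKO value in Wtap-CKO 3, the library that stood apart on the second component. So did Coq2, Coq4 and, by a small margin, Coq5, while the other members did not. The part of that library in the scatter was not tested. Coq4, which is needed for the complex, stood at 2.90, 3.22 and 3.44 FPKM against 3.17, 3.52 and 3.75 FPKM (log2 fold change 0.10, adjusted p = 0.606), and its sign turned with a fixed total. Coq4 shares 1010 bases with Trub2 on the opposite strand. Trub2 had 5.43 ± 0.220 and 4.01 ± 0.525 FPKM (SD, n = 3), with a log2 fold change of -0.37 (adjusted p = 0.0707, limma).

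In the order of the members by mean FPKM, which is per length, Coq8a changed place between groups, and 2 pairs of neighbours with overlapping values swapped. In Wtap-flox the order was Coq9, Coq8a, Coq5, Coq2, Coq6, Coq3, Coq7, Pdss1, Coq4 and Coq8b. The values of Coq5 and Coq2 overlapped, as did those of Coq7 and Pdss1, and all other neighbours lay apart. In Wtap-CKO the order was Coq9, Coq2, Coq5, Coq6, Coq8a, Coq3, Pdss1, Coq7, Coq4 and Coq8b. Coq8a moved from position 2 to position 5, next to Coq6, whose values overlapped its own. Coq2 and Coq5 again overlapped, as did Pdss1 and Coq7, and all other neighbours lay apart. Coq8a made up 23.5%, 22.3% and 19.0% of the summed FPKM of the 10 members in Wtap-flox and 8.21%, 10.4% and 7.86% in Wtap-CKO. Without Coq8a alone the other 9 members summed to 176 to 193 FPKM in Wtap-flox and 151 to 177 FPKM in Wtap-CKO. These sums overlapped, and the median log2 fold change of the 9 was 0.08. Without Coq8a and Coq9 the other 8 members summed to 108, 119 and 122 FPKM in Wtap-flox and 118, 107 and 129 FPKM in Wtap-CKO. These sums overlapped too, and the median log2 fold change of the 8 was 0.09, beside 0.00 over all tested genes. The 8 are the members that did not pass, so their sums and median partly follow from that choice.

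Among 50 other genes listed for coenzyme Q supply, turnover and use, 45 were tested, 4 fell and 1 rose. That is 8.89% and 2.22%, beside 6.69% and 9.91% of all tested genes, and the median log2 fold change was -0.13. These lists, too, were made with earlier results of these data known. The number passing ran from 0 to 10 over the alternatives. With 1 library left out it was 0 (Wtap-flox 2), 1 (Wtap-flox 1 or Wtap-flox 3), 2 (Wtap-CKO 2 or Wtap-CKO 3) and 3 (Wtap-CKO 1). Of 11 tested genes for the supply of the tail and the ring, Mvd rose and 0 fell. Mvd, a decarboxylase of the mevalonate pathway, went from 5.77, 5.42 and 4.77 FPKM to 6.83, 8.18 and 8.09 FPKM (log2 fold change 0.46, adjusted p = 0.0343, limma). The call was lost without any 1 library other than Wtap-CKO 1 (adjusted p up to 0.113). Fdps of the same pathway was below the filter, and Hpd and Tat were at 0 in all libraries.

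Of 11 tested genes for electron donors, lipid binding and proteostasis, Coq10a and Stard7 fell and 0 rose, beside 6.69% and 9.91% of all tested genes. Coq10a, for a coenzyme Q-binding protein, went from 27.8, 32.2 and 27.3 FPKM to 21.3, 18.5 and 18.7 FPKM (log2 fold change -0.55, adjusted p = 0.0182, limma), without overlap. It missed the threshold without Wtap-flox 2 (adjusted p = 0.0834). Stard7, for a lipid transfer protein with a part in coenzyme Q export from mitochondria, went from 48.9, 51.3 and 56.6 FPKM to 40.8, 36.2 and 31.4 FPKM (-0.53, adjusted p = 0.0355). Stard7 passed in none of the fits that left out 1 library (adjusted p 0.052 to 0.113). The protease gene Oma1 had 0.44 and did not pass (adjusted p = 0.0547). None of the 3 other UbiB kinase genes passed by limma or limma-voom, or at an unadjusted p under 0.05 (0 of 3). Adck1 had -0.18 and Adck5 had 0.19, a sign that turned without Wtap-CKO 3, beside -1.61 for Coq8a. The difference between these genes was not tested.

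Of 11 tested enzymes that reduce coenzyme Q outside complex I, Nqo1 and Etfdh fell and 0 rose, beside 6.69% and 9.91% of all tested genes. The median log2 fold change of these enzymes was -0.21. Nqo1, a quinone reductase, went from 6.83, 9.72 and 7.34 FPKM to 5.82, 4.92 and 4.93 FPKM (-0.52, adjusted p = 0.0423, limma). Etfdh, which passes electrons from fatty acid oxidation to coenzyme Q, went from 58.0, 55.7 and 61.1 FPKM to 47.6, 41.6 and 38.5 FPKM (-0.45, adjusted p = 0.04996). Both were lost in every fit that left out 1 library, at an adjusted p of up to 0.143 for Nqo1 and 0.142 for Etfdh. Aifm2, a quinone reductase that protects against lipid peroxidation, had 0.20 and did not pass (adjusted p = 0.260). Summed, the 12 listed enzymes stood at 951 to 1149 FPKM in Wtap-flox and 807 to 933 FPKM in Wtap-CKO. None of 9 genes of complex III, which oxidises the reduced form, passed by limma or limma-voom (0 at an unadjusted p under 0.05). Uqcrc2 had -0.31 (adjusted p = 0.172) and Uqcr10 had 0.53 (adjusted p = 0.210), and the summed level was 3793 FPKM in Wtap-CKO 3 against 2255 to 2645 FPKM in the other 5 libraries.

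**Figure D4:**
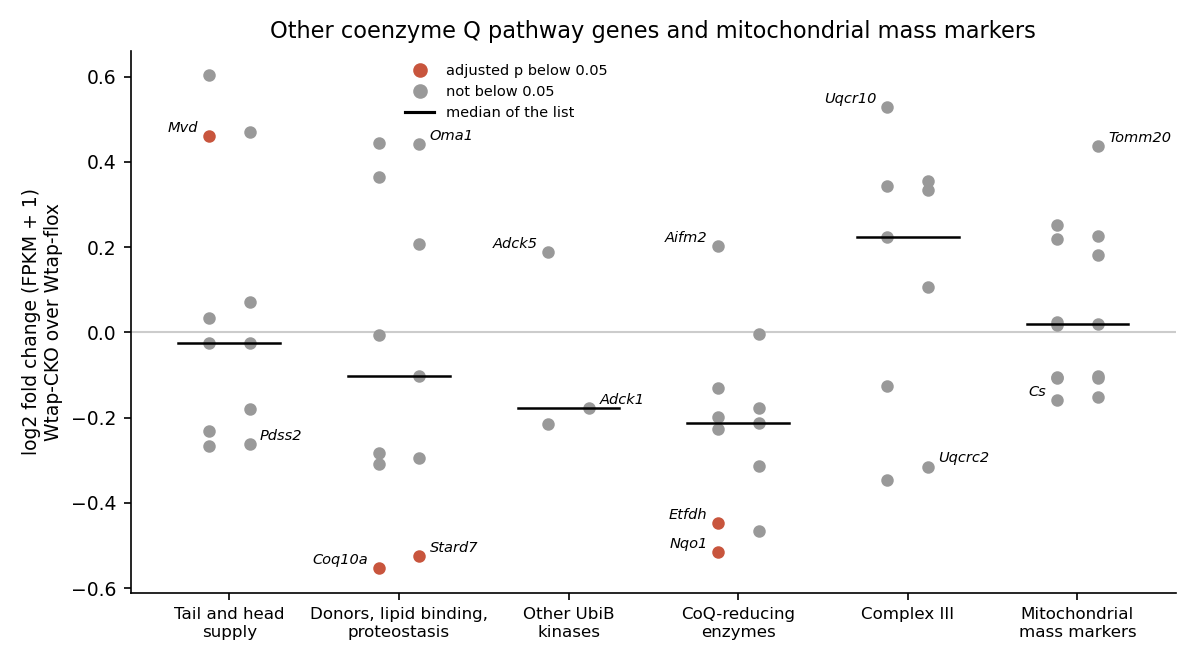
Log2 fold change (FPKM + 1 scale, Wtap-CKO over Wtap-flox) of each tested gene in the 5 lists of other coenzyme Q genes and of mitochondrial mass markers, with the median of each list as a bar. The 5 genes past an adjusted p of 0.05 are Coq10a, Stard7, Nqo1, Etfdh and Mvd, and the medians lie between -0.21 and 0.22.

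Markers of mitochondrial mass and of other cell types give the setting of these values. None of 14 mass markers passed by limma. The import receptor gene Tomm20 had 0.44 (adjusted p = 0.0602), was the 1 marker with an unadjusted p under 0.05 and passed by limma-voom (adjusted p = 0.0424). The citrate synthase gene Cs had -0.16 (adjusted p = 0.488). Their summed level was 1090 to 1288 FPKM in Wtap-flox and 1162 to 1268 FPKM in Wtap-CKO, with a median log2 fold change of 0.02. None of the 10 cardiomyocyte markers passed by limma, and their median log2 fold change was -0.15. At an unadjusted p under 0.05, 2 of them lay lower (Myl7 and Pln), and limma-voom called 1 lower. Myl7 went from 154, 52.4 and 95.9 FPKM to 23.0, 16.9 and 44.8 FPKM (-1.78, adjusted p = 0.0720, limma), and Pln had -0.53 (adjusted p = 0.0751). Without overlap, 3 of the 10 markers lay lower and 1 higher, beside 17.3% and 19.8% of all tested genes. Beside the calls that follow, 6.69% of all tested genes fell and 9.91% rose. Among 6 tested macrophage and leukocyte markers 3 rose (C1qb, C1qa and Mrc1). The summed level of all 8 macrophage and leukocyte markers was 31.3 to 36.1 FPKM in Wtap-flox and 46.5 to 73.3 FPKM in Wtap-CKO. Of 8 fibroblast markers Lum and Dcn fell (sum 705 to 802 against 530 to 741 FPKM). Of 8 endothelial markers Kdr fell and Emcn and Vwf rose (sum 255 to 286 against 248 to 264 FPKM). Of 7 tested smooth muscle and pericyte markers Cnn1 and Cspg4 rose (sum 564 to 803 against 763 to 987 FPKM). None of 6 erythroid and none of 2 tested brown adipocyte markers passed by limma or limma-voom (0 and 2 at an unadjusted p under 0.05), with Adipoq and Elovl3 at 0 in all libraries. In the skeletal muscle list Myod1 and Pax7 were at 0, while Acta1 rose and Ckm fell, both of which heart muscle also expresses. The part of these cell types in the values of Coq8a and Coq9 was not tested.

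The genes whose profile over the 6 libraries was most like that of Coq8a included Nov, Dusp18, Yipf7 and Asb10. Likeness was the root mean square difference in log2(FPKM + 1), each gene centred on its own mean, among 6980 other coding genes averaging 5 FPKM or more. It was 0.183 for Nov, which encodes a matricellular protein. Nov stood at 18.4, 16.6 and 15.5 FPKM in Wtap-flox and 5.68, 7.88 and 5.36 FPKM in Wtap-CKO, also without overlap. The phosphatase gene Dusp18 had 0.218, Yipf7 0.219 and the ankyrin repeat gene Asb10 0.227. The measure is dominated by the difference between the groups, by which Coq8a was chosen, and carries no test.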

How the data were processed

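Whole-heart poly(A)+ RNA was read from both ends with 150 bases each, per the labels' protocols. Per the submitters' processing notes, CASAVA, HISAT2 2.0.5, featureCounts 1.5.0-p3 and DESeq2 1.20.0 were used, with GRCm39 named. In the file, however, 94.8% of 20837 protein coding genes start or end within 1000 bases of GRCm38.p6 and 3.37% of 19362 of GRCm39, so coordinates are given as GRCm38. The authors deposited FPKM values for 54532 genes, with 1 column per library and none left unused. Multiplied by gene length, 100.0% of values above 0 were whole multiples of 1 step per library (tolerance 0.01 of a step), which gives the reads, or read pairs, behind each value. The library size implied by this step lay above the assigned reads in every Wtap-flox library and below them in every Wtap-CKO library. The limma-voom fit took the same sizes, so it does not check the scaling. The sources used here do not state strandedness or how overlapping genes were counted.

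Genes averaging 1 FPKM or more were tested with limma 3.58.1 (R 4.3.3) on log2(FPKM + 1), using robust moderation and a variance trend, two-sided, with Benjamini-Hochberg adjustment over all 12568 genes and a threshold of 0.05. The procedure was tested on simulated data. Alternatives were other pseudocounts, filters, scalings, moderation and weights, a replicate block, limma-voom on the recovered reads, stricter thresholds and leaving out each library. Named were the 10 members and Pdss2, from each further list up to 4 genes past the threshold and the first in the opposite direction, or the first where none passed, and the 5 genes most like Coq8a, of which 1 is not reported here. Of the 51 other pathway symbols 50 were in the file, where Fdx2 stands under its older symbol Fdx1l, also listed. The members and lists were chosen with earlier results of these data known. Of the 10 members 8 had RefSeq promoter windows. Python 3.11.15, numpy 2.4.6, pandas 2.3.3 and matplotlib 3.10.9 were used.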

Additional observations from a re-analysis of the deposited data

How the results depend on the processing

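The difference of Coq8a and its ratio to Coq8b kept their direction under every alternative run. The number of members called was 2, and 1 without a filter, with the replicate block, at an adjusted p under 0.01, with a 2-fold minimum change on top of the test, and when any library other than Wtap-CKO 3 was left out (range 1 to 2). It was 3 with TPM scaling and with a total without mitochondrial genes, where Coq6 was added. Coq9 was the one lost in the settings that gave 1 (adjusted p = 0.0544 without a filter and 0.0623 with the block). The number of other coenzyme Q pathway genes called was 5, but 0 without a filter, at an adjusted p under 0.01 or with that minimum, 1 with the replicate block, 2 with a filter at 0.1 FPKM, 8 with TPM scaling or a total without mitochondrial genes, 9 with array weights, 10 with quantile normalization and 0 to 3 with 1 library left out. Of all tested genes 2086 were called, 1206 without a filter, 3732 with array weights, 785 at an adjusted p under 0.01, 413 with the minimum change, 1673 with the replicate block and 1189 to 2016 with 1 library left out. Same-numbered libraries did not deviate together (correlations of -0.22, -0.08 and -0.08 across genes), no library correlated best with its own number, and the numbers are not read as pairs. TPM scaling and a total without mitochondrial genes shifted the median of all genes by -0.14 and -0.15 and the share of called genes that were higher from 59.7% to 33.1% and 32.5%. Signs turned for Coq2 (-0.068 with quantile normalization, and -0.079 and -0.089 with these 2 scalings), Coq4 (-0.030 and -0.038), Pdss1 (-0.027 and -0.036) and Coq5 (-0.093, -0.110 and -0.121, and -0.019 to 0.107 with 1 library left out). They also turned for Coq7 (-0.302 to 0.157 with 1 library left out) and Adck5 (-0.000599 to 0.310). With 128 to 189 reads, Coq8b is the member with the least depth. TPM scaling sets the summed FPKM of all libraries equal. Before it, that sum was 315632 to 339917 in Wtap-flox and 357870 to 388328 in Wtap-CKO, without overlap. Why the sums differed was not tested, nor why signs turned with 1 library left out.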

Other observations

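The following genes were chosen after their values were seen. Hpdl, whose product takes part in the supply of the ring precursor, stood at 1.53, 2.41 and 1.94 FPKM in Wtap-flox and 4.74, 2.44 and 3.49 FPKM in Wtap-CKO (log2 fold change 0.60, adjusted p = 0.0689, limma). The lowest Wtap-CKO value lay just above the highest of Wtap-flox, and the difference did not pass. Coq10b, the paralogue of Coq10a, stood at 4.66, 4.22 and 5.03 FPKM in Wtap-flox and 6.78, 5.71 and 6.28 FPKM in Wtap-CKO (0.37, adjusted p = 0.0653). Its values lay apart upward while those of Coq10a lay apart downward, and the difference between the paralogues was not tested. Sdha, for the flavoprotein subunit of complex II, stood at 252, 264 and 276 FPKM against 192, 187 and 194 FPKM (-0.47, adjusted p = 0.0536), without overlap and without passing. Fam161b, which shares 177 bases with Coq6 on the opposite strand, fell from 2.72, 2.72 and 2.72 FPKM to 1.197, 0.932 and 1.02 FPKM (-0.86, adjusted p = 0.00234).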
